A study of Mus musculus with 6 samples.

Results

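Lysosomal hydrolases, their activator proteins and lysosomal membrane proteins were examined in mouse embryonic stem cells depleted of Pcl2 (gene symbol Mtf2), a Polycomb-like protein that binds the histone methyltransferase complex PRC2. The list holds 41 genes, the regulator Tfeb included. Each gene is represented by the brightest of its single-gene probe sets, selected on the mean log2 signal over the 6 arrays; this mean is therefore only described. Of the 41 genes, 40 had such a probe set, 39 passed the filter on low signals and entered the test with all 13095 genes, Man2b2 did not pass, and Cd63 was not analysed here. The list was drawn up with earlier results of these arrays known.

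The groups were 3 arrays of R1 embryonic stem cells stably carrying a Pcl2 shRNA and 3 arrays of R1 cells stably carrying a mismatch control shRNA. Both were undifferentiated cells grown in serum medium with leukemia inhibitory factor and were hybridised to Affymetrix Mouse Genome 430 2.0 arrays. The labels call the 3 arrays of each group biological replicates, and all Pcl2 shRNA RNA came from 1 clone. The tests measure the spread between these arrays and do not cover the spread between clones.

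Lysosomes are acidic organelles in which more than 1 class of hydrolase takes apart sugar chains, sulfated polysaccharides, lipids and proteins brought in by endocytosis and autophagy. Loss of a single enzyme leaves its substrate undigested, which is the basis of the lysosomal storage diseases. Many genes of the organelle carry an E-box in the promoter that Tfeb and the related factors Tfe3 and Mitf can bind, and these factors move to the nucleus when mTORC1 at the lysosomal surface is inactive.

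The 6 arrays had been scaled to the same trimmed mean, so depth does not apply and the number of arrays limits the precision. Pearson correlations of log2 signals over the tested genes were 0.961 to 0.977 within groups and 0.907 to 0.943 between groups. Mtf2 itself gave signals of 1048, 1167 and 870 on the Pcl2 shRNA arrays and 1951, 1513 and 1704 on the mismatch control arrays. The groups did not overlap, and Mtf2 fell to 59.7% of the mismatch control mean (log2 difference -0.74, SE 0.17, adjusted p = 0.0157 in limma over all genes tested).

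Most of the lysosomal genes differed little between the groups, and 4 of 39 passed an adjusted p of 0.05. Manba, which encodes the beta-mannosidase that removes the last mannose of digested glycans, rose about 4.63-fold. The protease gene Ctsc and the sulfatase genes Arsb and Ids fell, of which Arsb passed the filter on low signals only through the mismatch control arrays. The called share was 10.3%, where 12.6% of all genes tested were called (4.46% higher and 8.16% lower in Pcl2 shRNA cells); the list's share lay below that of all genes. The median log2 difference of the 39 genes was -0.07, with 14 genes above 0 and 25 below, beside a median of 0.02 over all 13095 genes. A difference within 0.5 log2 units of 0 was measured for 29 lysosomal genes, or 74.4%, and for 74.2% of all genes tested. The groups did not overlap for 7 of the 39 genes, or 17.9%, against 31.2% of all genes. When the replicate number was kept as a block, 3 lysosomal genes were higher and 7 lower, in a fit that called 23.8% of all genes.

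**Figure D1:**
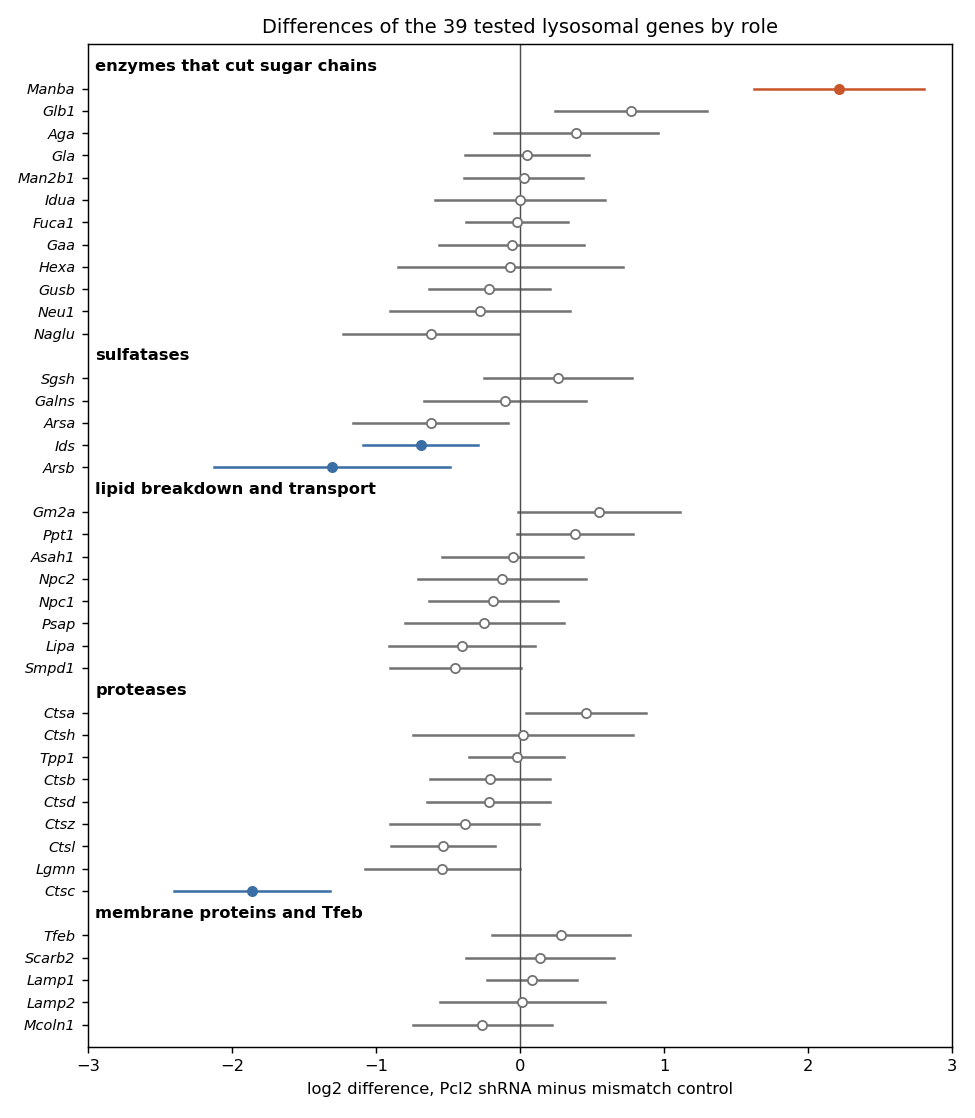
Log2 differences of the 39 tested lysosomal genes, Pcl2 shRNA minus mismatch control, grouped by role, with 95% confidence intervals of the limma fit (horizontal axis in log2 units of signal + 7; n = 3 arrays each). Filled points passed an adjusted p of 0.05: Manba lies at 2.21, Ids at -0.69, Arsb at -1.31 and Ctsc at -1.86, while the other 35 genes are open points.

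Among the 12 tested enzymes that cut sugar chains, 1 rose and none fell, a called share of 8.33% beside 12.6% of all genes tested. Their median log2 difference was -0.01. Manba had signals of 1442, 1560 and 2003 on the Pcl2 shRNA arrays, against 560, 260 and 297 on the mismatch control arrays. Every Pcl2 shRNA array lay well above every mismatch control array. The log2 difference was 2.21 (SE 0.27, 95% confidence interval 1.62 to 2.80, adjusted p = 0.000721 in limma), and it stayed between 2.00 and 2.54 in all 19 alternative settings. The array holds no second single-gene probe set for Manba in the annotation used.

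Glb1 encodes the lysosomal beta-galactosidase whose loss causes GM1 gangliosidosis. Its signals were 281, 432 and 507 on the Pcl2 shRNA arrays and 192, 221 and 281 on the mismatch control arrays. The groups met at one value, the lowest Pcl2 shRNA array lying just under the highest mismatch control array. The log2 difference of 0.77 (SE 0.24) had an adjusted p of 0.0607 in limma without the replicate block and 0.0033 with it.

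Naglu, which acts on heparan sulfate, averaged 29.5 ± 11.0 on the Pcl2 shRNA arrays and 48.0 ± 10.1 on the mismatch control arrays (SD, n = 3 each), a log2 difference of -0.62 whose adjusted p was 0.186 in limma. Its groups overlapped: the Pcl2 shRNA array labelled replicate 3 read 42.0, and the lowest mismatch control array read 41.8. The other 9 enzymes of this kind had log2 differences between -0.28 and 0.39. At the ends of that range were Neu1, the lysosomal sialidase, at -0.28 and Aga, which cuts glycans from asparagine, at 0.39. Closest to 0 was Idua, another enzyme of heparan sulfate breakdown, at -0.00 with a 95% confidence interval of -0.59 to 0.59. Hexa, a subunit of hexosaminidase, had a log2 difference of -0.07 with the interval -0.85 to 0.71, the widest among these enzymes. Its signals spread more than 2-fold within both groups: 256, 345 and 635 on the Pcl2 shRNA arrays and 252, 452 and 570 on the mismatch control arrays. Man2b2, the gene below the filter, read 23.0, 13.7 and 37.5 on the Pcl2 shRNA arrays and 14.8, 9.79 and 17.5 on the mismatch control arrays, a log2 difference of 0.54 that did not pass a two-sided exact permutation test (p = 0.3, where the smallest p this design allows is 0.1).

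Sulfatases strip sulfate groups from polysaccharides and lipids before the sugars can be cut. Of the 5 tested, 2 fell and none rose, a called share of 40% beside 12.6% of all genes tested. With so few genes, that share rests on Ids and Arsb. Arsb passed the filter on low signals only through the mismatch control arrays, so the share is only described. The median log2 difference was -0.62. Ids, the iduronate sulfatase that opens the breakdown of heparan and dermatan sulfate, read 209, 179 and 179 on the Pcl2 shRNA arrays and 333, 258 and 343 on the mismatch control arrays. The highest Pcl2 shRNA array lay below the lowest mismatch control array. Ids fell to 60.8% of the mismatch control mean (log2 difference -0.69, SE 0.18, 95% confidence interval -1.09 to -0.29, adjusted p = 0.0302 in limma). A weaker probe set of Ids gave a log2 difference of -0.68, and the other weaker probe sets past the filter gave -0.16 and 0.15. With the mean of these probe sets in place of the brightest one, the Ids difference was -0.35 and its adjusted p 0.306.

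Arsb removes sulfate from dermatan and chondroitin sulfate. It gave 28.4, 7.05 and 13.5 on the Pcl2 shRNA arrays and 70.1, 37.6 and 37.9 on the mismatch control arrays. On 2 of the 3 Pcl2 shRNA arrays this was below 20.3, the highest signal of 27 control probe sets for bacterial genes that mouse RNA does not hold, and no mismatch control array was. The log2 difference was -1.31 (SE 0.37, 95% confidence interval -2.12 to -0.49, adjusted p = 0.0438 in limma). The Pcl2 shRNA mean of 16.3 lay below the filter cut, a signal of 20.17, and the mismatch control mean was 48.5. Arsb thus passed the filter through the mismatch control arrays, and its call is not independent of that selection. With all signals floored at that background level, it was -0.85 with an adjusted p of 0.055 in limma. Its other probe sets lay below the filter.

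Arsa, which desulfates the myelin lipid sulfatide, read 183, 205 and 274 on the Pcl2 shRNA arrays and 403, 238 and 405 on the mismatch control arrays. Only the mismatch control array labelled replicate 2 came within the Pcl2 shRNA range. The log2 difference of -0.62 (SE 0.24) had an adjusted p of 0.129 in limma without the replicate block and 0.0294 with it. Galns and Sgsh, sulfatases of keratan sulfate and of heparan sulfate, had log2 differences of -0.10 and 0.26 with adjusted p above 0.5 in limma.

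None of the 8 genes for lipid breakdown and transport passed the test, where 12.6% of all genes tested were called. At that share, no call among 8 genes says little. Their median log2 difference was -0.16. Gm2a, the activator that presents ganglioside GM2 to hexosaminidase, read 204, 277 and 383 on the Pcl2 shRNA arrays and 171, 158 and 247 on the mismatch control arrays. Each Pcl2 shRNA array was above the mismatch control array of the same number, and the groups overlapped. Its log2 difference of 0.55 had an adjusted p of 0.202 in limma, and 0.0251 with the replicate block. Smpd1, the acid sphingomyelinase, read 166, 132 and 184 on the Pcl2 shRNA arrays and 250, 177 and 241 on the mismatch control arrays. Only the mismatch control array labelled replicate 2 fell within the Pcl2 shRNA range, and the log2 difference of -0.45 had an adjusted p of 0.194 in limma and 0.0418 with the block.

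Psap, the precursor of the saposin activators, read 493, 791 and 1105 on the Pcl2 shRNA arrays and 898, 893 and 906 on the mismatch control arrays. The mismatch control arrays were nearly equal, and the Pcl2 shRNA arrays lay on both sides of them, so the log2 difference of -0.25 was within the spread (95% confidence interval -0.80 to 0.31). Ppt1, which removes palmitate from proteins, averaged 164 ± 11 on the Pcl2 shRNA arrays and 125 ± 15 on the mismatch control arrays (SD, n = 3 each). Its groups did not overlap, but the log2 difference of 0.38 had an adjusted p of 0.22 in limma. Npc1 and Npc2, which export cholesterol from the lysosome, had log2 differences of -0.19 and -0.13. Those of Lipa, the acid lipase that hydrolyses cholesteryl esters, and Asah1, the acid ceramidase, were -0.40 and -0.05.

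**Figure D2:**
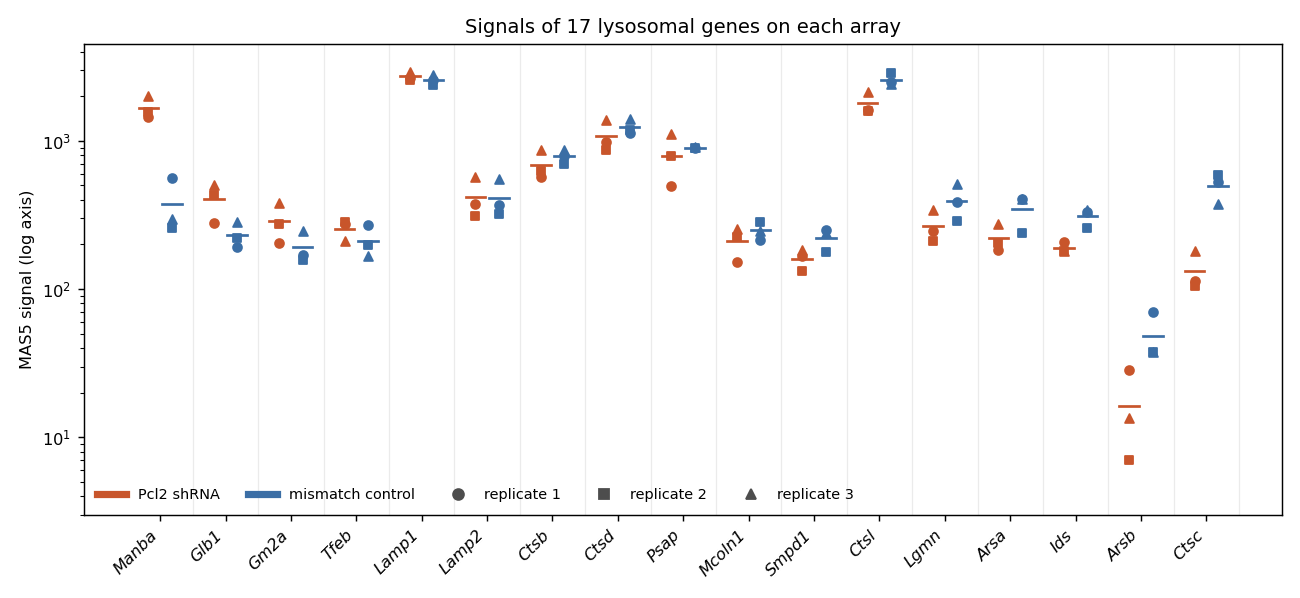
MAS5 signals of 17 lysosomal genes on each of the 6 arrays (log axis; Pcl2 shRNA on the left and mismatch control on the right of each gene; symbols give the replicate number and lines the group mean, n = 3 each). Manba, Ids, Arsb, Ctsc and Ctsl have separate groups, and Lamp1, with 2585 to 2916 on the Pcl2 shRNA arrays and 2366 to 2794 on the mismatch control arrays, does not.

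Of the 9 proteases, 1 fell and none rose, a called share of 11.1% beside 12.6% of all genes tested. Their median log2 difference was -0.22. Ctsc encodes the dipeptidyl peptidase that activates serine proteases of immune cells. Its signals were 113, 106 and 181 on the Pcl2 shRNA arrays and 531, 586 and 375 on the mismatch control arrays. The highest Pcl2 shRNA array was below the lowest mismatch control array by more than 2-fold. Ctsc fell to 26.7% of the mismatch control mean (log2 difference -1.86, SE 0.24, 95% confidence interval -2.40 to -1.32, adjusted p = 0.00101 in limma), and the difference stayed between -2.09 and -1.73 in all 19 alternative settings. Its other probe sets lay below the filter.

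Ctsl, an endopeptidase, read 1623, 1601 and 2149 on the Pcl2 shRNA arrays and 2484, 2852 and 2407 on the mismatch control arrays. The groups did not overlap. The log2 difference of -0.54 (SE 0.16, 95% confidence interval -0.90 to -0.17) had an adjusted p of 0.0586 in limma and 0.0271 with the replicate block. Lgmn, the asparaginyl endopeptidase that processes several cathepsins, read 246, 212 and 342 on the Pcl2 shRNA arrays and 385, 288 and 508 on the mismatch control arrays. Each Pcl2 shRNA array was below the mismatch control array of the same number, although the groups overlapped. Its log2 difference was -0.54 as well, with an adjusted p of 0.188 in limma and 0.0127 with the block.

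Ctsb, a cysteine protease, read 571, 621 and 872 on the Pcl2 shRNA arrays and 790, 700 and 866 on the mismatch control arrays. Ctsd, the main aspartic protease of the lysosome, read 978, 871 and 1380 on the Pcl2 shRNA arrays and 1123, 1182 and 1400 on the mismatch control arrays. The groups of each gene overlapped, with log2 differences of -0.21 and -0.22 and adjusted p above 0.5 in limma. Ctsa, which also shields Glb1 and Neu1 from degradation, was 252, 279 and 287 on the Pcl2 shRNA arrays, all above the 183, 245 and 169 of the mismatch control arrays. Its log2 difference of 0.46 had an adjusted p of 0.152 in limma. Tpp1, a tripeptidyl peptidase, had a log2 difference of -0.02 with a 95% confidence interval of -0.36 to 0.31. Ctsz, a carboxypeptidase, was at -0.39 and Ctsh, an aminopeptidase, at 0.02, neither past the test.

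None of the 4 membrane proteins passed the test, nor did Tfeb, where 12.6% of all genes tested were called. At that share, no call among 5 genes says little. The median log2 difference of these 5 genes was 0.08. Lamp1, an abundant glycoprotein of the limiting membrane, read 2662, 2585 and 2916 on the Pcl2 shRNA arrays and 2562, 2366 and 2794 on the mismatch control arrays. The groups overlapped, and the interval of the log2 difference, -0.23 to 0.39, leaves out a change of 0.5 either way. Lamp2, its relative with a part in autophagy, read 377, 313 and 572 on the Pcl2 shRNA arrays and 369, 323 and 551 on the mismatch control arrays. Its arrays of the same number were close to each other, and the log2 difference was 0.02 (95% confidence interval -0.56 to 0.59).

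Mcoln1, a calcium channel of the lysosomal membrane, read 152, 224 and 253 on the Pcl2 shRNA arrays and 215, 283 and 248 on the mismatch control arrays, a log2 difference of -0.26 with overlapping groups. Scarb2, the receptor that carries glucocerebrosidase to the lysosome, had a log2 difference of 0.14. The transcription factor Tfeb read 275, 283 and 210 on the Pcl2 shRNA arrays and 272, 197 and 166 on the mismatch control arrays. The groups overlapped, and the log2 difference of 0.28 had an adjusted p of 0.467 in limma. The arrays measure the Tfeb transcript and not where its protein is in the cell.

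The signals of the lysosomal genes also varied together within the groups. The Pcl2 shRNA array labelled replicate 3 was the highest of its group for 31 of the 39 genes (79.5%, beside 41.1% of all genes tested), and the mismatch control array labelled replicate 3 was the highest of its group for 24 (61.5%, beside 38.1%). Both held for 22 genes, or 56.4%, against 22.5% of all genes. The median excess of replicate 3 over the mean of replicates 1 and 2 was 0.45 log2 units in Pcl2 shRNA cells and 0.22 in mismatch control cells for the lysosomal genes, and 0.05 in each group over all genes. For the 33 other lysosomal genes tested it was 0.28 and 0.22. Hexa, Npc2 and Lamp2 showed it in both groups, and Npc2 read 2403 on the Pcl2 shRNA array and 2394 on the mismatch control array of that number. What the arrays of this number share beyond the number was not tested.

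**Figure D3:**
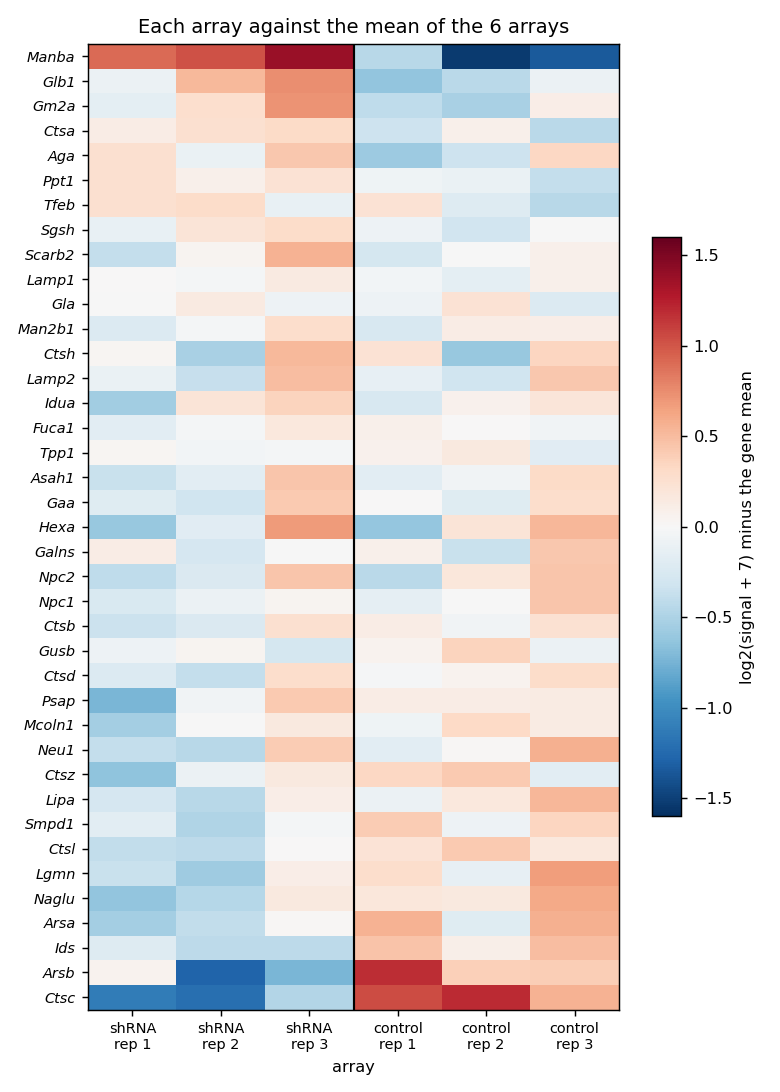
Deviation of each array from the mean of the 6 arrays for the 39 tested lysosomal genes (rows, ordered by the log2 difference; columns, the 3 Pcl2 shRNA arrays left of the line and the 3 mismatch control arrays right of it; colour, log2 units of signal + 7). Manba at the top and Ctsc at the bottom separate by group. Over all 39 rows, the array labelled replicate 3 is the highest of its group for 31 genes in Pcl2 shRNA cells and for 24 in mismatch control cells, with exceptions such as Gla and Tpp1 in both groups.

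Different probe sets of a gene did not always move alike. Of the tested genes, 22 had 32 further probe sets past the filter, and 12 of these, from 11 genes, had a difference of the other sign, between -0.54 and 0.37 log2 units. Ids was the only called gene among the 11, and the only called gene with a further probe set past the filter.

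Promoter sequences were examined because the E-box CACGTG is what Tfeb-related factors bind. RefSeq windows of 250 bases before to 50 bases after the gene start (GRCm38.p6) were found for 35 of the 41 genes; Galns, Asah1, Npc1, Ctsb, Ctsh and Aga had no entry. CACGTG, which reads the same on both strands, occurred in 12 of the 35 promoters (34.3%), against 8.09% of the 27025 genes of the table, 11.6% of the 10576 tested genes with a promoter and 7.15% of all 32851 windows of that length. The longer TCACGTG on either strand, which contains the core, occurred in 11 (31.4%, against 4.29% of all genes in the table and 6.79% of the tested genes with a promoter). Neighbouring gene lists held the core as well. The share was 31.8% for genes that sort enzymes to lysosomes and 26.7% for the vacuolar ATPase. It was 25% for Tfeb-related factors and nutrient sensing, 23.8% for autophagy and 13.9% for other lysosomal enzymes and membrane proteins. Among the 41 genes, the 12 with the core were Arsa, Ctsa, Ctsd, Ctsl, Gaa, Gla, Glb1, Lamp1, Lgmn, Mcoln1, Naglu and Sgsh. Shown first are stretches upstream of the gene start in 4 genes that differ in the number of cores or in direction, with the core in capitals.
Lamp1 (chr8:13159080-13159160, plus strand): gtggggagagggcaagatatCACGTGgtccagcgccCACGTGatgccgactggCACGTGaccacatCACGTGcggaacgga
Mcoln1 (chr8:3500428-3500499, plus strand): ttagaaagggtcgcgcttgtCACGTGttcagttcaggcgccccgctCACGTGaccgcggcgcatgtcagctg
Glb1 (chr9:114401010-114401055, plus strand): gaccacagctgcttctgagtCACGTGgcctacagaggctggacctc
Arsa (chr15:89477425-89477460, minus strand): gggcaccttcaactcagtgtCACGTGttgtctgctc

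Lamp1 holds 4 copies of the core within the last 61 bases before its start, and Mcoln1 holds 2. None of the 4 called genes holds the core in its 300-base window. Over all genes tested, 136 of the 1222 with the core were called (11.1%) and 1172 of the 9354 without it (12.5%), shares at which a count of 0 among 12 genes says little. The last 80 bases before the start of the 2 called genes with the largest differences are shown for comparison and carry no match.
Manba (chr3:135485531-135485610, plus strand): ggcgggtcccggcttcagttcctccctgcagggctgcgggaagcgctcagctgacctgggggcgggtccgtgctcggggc
Ctsc (chr7:88278005-88278084, plus strand): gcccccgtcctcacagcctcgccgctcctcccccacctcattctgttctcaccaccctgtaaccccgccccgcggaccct

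The 12 genes with the core had a median log2 difference of -0.14, ranging from -0.62 for Arsa to 0.77 for Glb1, with 5 above and 7 below 0. The 21 tested genes with a promoter and no match had a median of -0.07, ranging from -1.86 for Ctsc to 2.21 for Manba. Over all genes tested, the medians were 0.05 for the 1222 with the core and 0.02 for the 9354 without it. A match describes letters in this window, and binding was not measured.

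**Figure D4:**
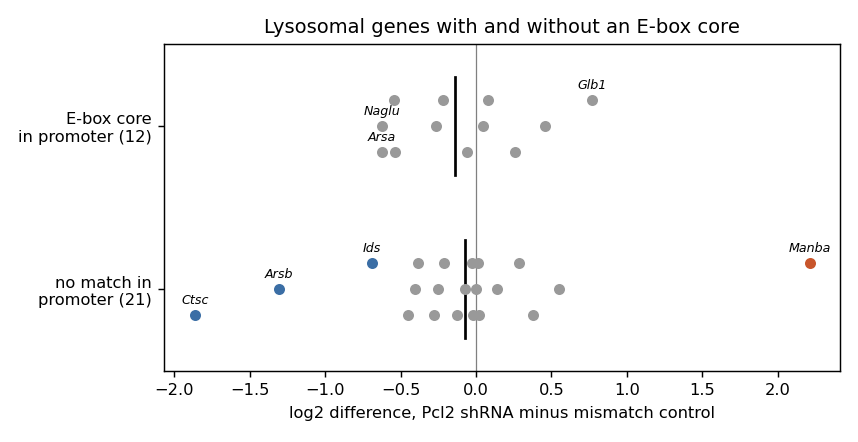
Log2 differences, Pcl2 shRNA minus mismatch control, of the 12 lysosomal genes with an E-box core in the promoter window (top) and the 21 without a match (bottom); vertical bars are medians, -0.14 and -0.07, and coloured points passed an adjusted p of 0.05. The points of the top row lie between -0.62 and 0.77, and the coloured points Manba, Ids, Arsb and Ctsc are in the bottom row.

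Of 33 other lysosomal enzymes and membrane proteins tested, 4 rose and 2 fell, and the median log2 difference was 0.03. The called share was 18.2%, beside the 12.6% of all genes tested. Dnase2a, the acid DNase that degrades DNA of engulfed cells, read 319, 202 and 176 on the Pcl2 shRNA arrays and 116, 55.8 and 100.9 on the mismatch control arrays. Its groups were apart, with a log2 difference of 1.30 (SE 0.30, adjusted p = 0.0168 in limma). The name of its only single-gene probe set ends in _x_at, so the alternative without such probe sets did not test Dnase2a. Acp5, the tartrate-resistant acid phosphatase, Scpep1, a serine carboxypeptidase, and the membrane protein gene Laptm5 rose by 1.17, 0.74 and 0.68 log2 units. Cln3, a membrane protein mutated in juvenile Batten disease, fell by 0.76 and the hyaluronidase gene Hyal2 fell by 0.69 on the log2 scale. A weaker Cln3 probe set past the filter gave a log2 difference of 0.22, and with the mean of both probe sets the difference was -0.27 with an adjusted p of 0.351 in limma. With the replicate block, 6 of the 33 were higher and 8 lower, in the fit that called 23.8% of all genes.

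The 17 tested subunits of the vacuolar ATPase, the pump that acidifies lysosomes, had a median log2 difference of -0.02. Of these, 5.88% were called, beside 12.6% of all genes tested. Only Atp6v1a, the catalytic subunit, rose, averaging 1678 ± 17 on the Pcl2 shRNA arrays and 1156 ± 63 on the mismatch control arrays (SD, n = 3 each), a log2 difference of 0.54 with an adjusted p of 0.0269 in limma. With the replicate block, 1 subunit was higher and 3 were lower, in the fit that called 23.8% of all genes. Of 29 genes that sort enzymes to lysosomes, none rose and 2 fell, a called share of 6.90% beside 12.6% of all genes tested. Rab7, the GTPase of late endosomes, read 700, 721 and 720 on the Pcl2 shRNA arrays and 1267, 1701 and 1392 on the mismatch control arrays. It fell by 1.01 log2 units (SE 0.16, adjusted p = 0.00241 in limma). Sort1, a sorting receptor, fell by 0.95 on the log2 scale, to 50.5% of the mismatch control mean. With the replicate block, none of the 29 sorting genes was higher and 3 were lower, in the fit that called 23.8% of all genes.

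Of 19 genes for the Tfeb-related factors and lysosomal nutrient sensing, 1 rose and 1 fell. The called share of 10.5% was near the 12.6% of all genes tested. Mitf read 147, 186 and 155 on the Pcl2 shRNA arrays and 69.2, 69.6 and 34.0 on the mismatch control arrays. Each Pcl2 shRNA array was above 2 times each mismatch control array, and the log2 difference was 1.45 (SE 0.27, adjusted p = 0.00601 in limma). Rragd, a Rag GTPase that links amino acids to mTORC1, averaged 221 ± 53 on the Pcl2 shRNA arrays and 429 ± 76 on the mismatch control arrays (SD, n = 3 each) and fell by 0.95 log2 units. With the replicate block, 3 of these 19 genes were higher and 3 lower, in the fit that called 23.8% of all genes.

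Of 25 autophagy genes, 3 rose and 1 fell, with a median log2 difference of 0.22. The called share of 16% was near the 12.6% of all genes tested. Ulk1, the kinase that starts autophagy, averaged 1202 ± 84 on the Pcl2 shRNA arrays and 666 ± 100 on the mismatch control arrays (SD, n = 3 each), a log2 difference of 0.85. Gabarapl2, a membrane-conjugated protein of the autophagosome, and Atg14, a subunit of the lipid kinase that acts there, rose by 1.08 and 1.03 log2 units. With the mean of its 2 probe sets, Gabarapl2 had a log2 difference of 0.61 and an adjusted p of 0.0387 in limma. Map1lc3a, a relative of Gabarapl2, fell by 0.72 on the log2 scale. Without probe sets whose name ends in _x_at, its log2 difference was -0.58 with an adjusted p of 0.149 in limma. With the replicate block, 8 of the 25 were higher and 3 lower, in the fit that called 23.8% of all genes. Of the cystatins, which inhibit cysteine cathepsins, Cstb and Cst3 were tested. Their log2 differences were -0.52 and -0.32, neither past the test. With the replicate block, the adjusted p of Cstb was 0.0135 in limma.

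**Figure D5:**
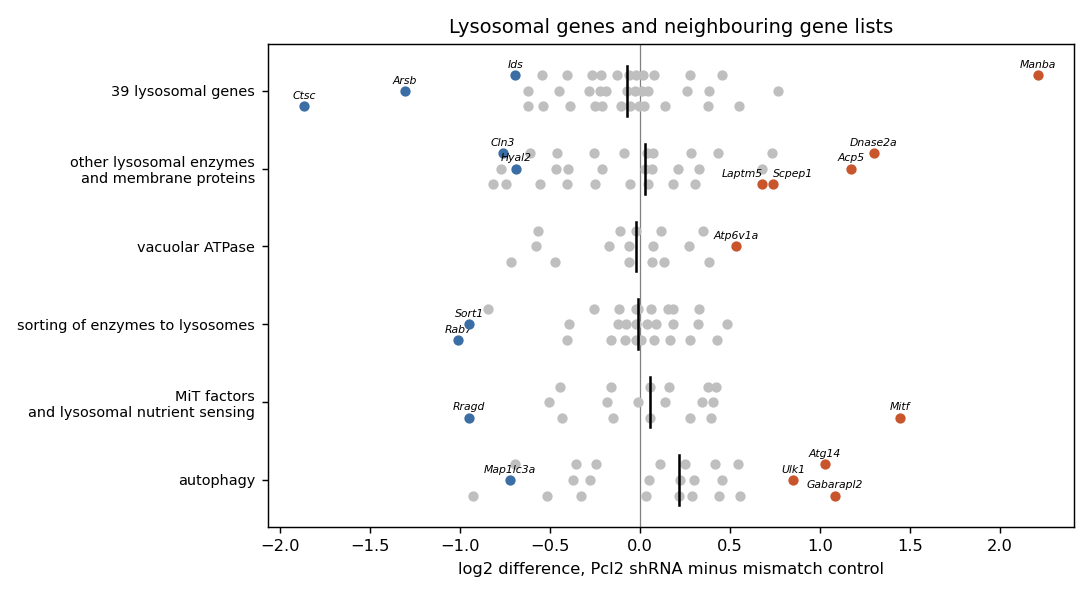
Log2 differences, Pcl2 shRNA minus mismatch control, of the tested genes of 6 lists (each point a gene, coloured and named where the adjusted p was below 0.05; black bars are medians). The medians lie between -0.07 for the 39 lysosomal genes and 0.22 for the autophagy genes.

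Lysosomal genes are expressed at different levels in different cell types, and in bulk RNA fewer cells of a type and less RNA per cell cannot be told apart. The summed signals of 19 fibroblast and feeder markers were 1599 to 3336 on the Pcl2 shRNA arrays and 2931 to 5116 on the mismatch control arrays, with Lum, Dcn and Fap at background on all arrays. Vim alone read 865 to 2165 on the Pcl2 shRNA arrays and 1447 to 2974 on the mismatch control arrays. Without Vim, the sums were 624 to 1171 on the Pcl2 shRNA arrays and 1015 to 2143 on the mismatch control arrays. All 14 tested had log2 differences below 0, with a median of -0.50, and 21.4% were called, beside 12.6% of all genes tested. Col5a1, Twist2 and Mmp2 fell, by 2.08, 1.79 and 1.07 log2 units. Without these 3, the sums were 1358 to 3159 in Pcl2 shRNA cells and 2170 to 4513 in mismatch control cells. Twist2 averaged 15.0 on the Pcl2 shRNA arrays, below the filter cut at a signal of 20.17, and 64.1 on the mismatch control arrays. Twist2 thus passed the filter through the mismatch control arrays, and its call is counted in the 21.4%. With signals floored at background, its log2 difference was -1.32. With the replicate block, none of the 14 fibroblast and feeder markers tested was higher and 7 were lower, in the fit that called 23.8% of all genes.

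The sums of 16 visceral endoderm markers were 477 to 579 in Pcl2 shRNA cells and 729 to 1044 in mismatch control cells, with Afp, Apoa1 and Ttr at background on all arrays. The gap came from Dab2 and Lrp2, 2 of the 8 markers tested, which fell by 1.79 and 1.49 log2 units (Lrp2 by 0.94 with the mean of its probe sets). They make a called share of 25%, beside 12.6% of all genes tested. Without Dab2 and Lrp2 the sums were 365 to 417 in Pcl2 shRNA cells and 340 to 402 in mismatch control cells. The other markers tested went both ways, none past the test. Their log2 differences were 0.70 for Hnf4a, 0.03 for Gata6, 0.00 for Gata4, -0.05 for Foxa2, -0.14 for Ihh and -0.40 for Amn. The sums of 15 macrophage markers were 395 to 505 in Pcl2 shRNA cells and 336 to 423 in mismatch control cells, with 6 markers, Ptprc and the C1q genes among them, at background on all arrays. None of the 6 tested was called, where 12.6% of all genes tested were, and at that share this says little. With the replicate block Cd68 was higher (adjusted p = 0.0135 in limma), in the fit that called 23.8% of all genes. Without Cd68, itself a lysosomal membrane protein, the sums were 239 to 294 in Pcl2 shRNA cells and 224 to 292 in mismatch control cells.

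The sums of 10 embryonic stem cell markers were 37643 to 49120 in Pcl2 shRNA cells and 22489 to 28298 in mismatch control cells. Of these, Klf4, Esrrb, Fgf4, Zfp42, Tdgf1 and Sox2 rose, by 1.78, 1.47, 1.34, 1.32, 0.89 and 0.76 log2 units. That is a called share of 60%, beside 12.6% of all genes tested. The other 4, Nanog, Dppa5a, Pou5f1 and Utf1, had log2 differences of 0.59, 0.44, 0.36 and 0.34, none past the test. With the replicate block, 7 of the 10 markers were higher and none lower, in the fit that called 23.8% of all genes. The part of these marker differences in those of the lysosomal genes was not tested.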

How the data were processed

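Total RNA of 6 samples was hybridised to Mouse Genome 430 2.0 arrays, 3 per group. The deposited values are MAS5 signals, an intensity per probe set on a linear scale, made with GCOS 1.4 per the labels' protocols and named MAS5 in the submitters' processing notes; the 2% trimmed mean was 150.0 on each of the 6 arrays. The labels give no other settings.

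Of 45101 probe sets, 34945 name 1 gene, 932 several, 9160 none, and 64 are controls, in GEO's platform annotation. Of the single-gene ones, 34741 matched the RefSeq gene table. Values were taken as log2(signal + 7), 7 being near the 20th percentile of all signals, and differences are on this scale, which understates those of low genes. Probe sets with a mean below the 40th percentile were left out, and the probe set with the highest mean stood for each gene. limma 3.58.1 in R 4.3.3 (lmFit, eBayes with trend) was run on 13095 genes with Benjamini-Hochberg adjustment. The code was checked on simulated data.

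The members and gene lists were chosen with earlier results of these data known. Values of all 6 arrays are given for members past the test, for members whose groups did not overlap with a difference of at least 0.5, and for Lamp1, Lamp2, Ctsb, Ctsd, Ctsl, Psap, Tfeb and Mcoln1; Glb1, Gm2a, Hexa, Arsa, Smpd1, Lgmn, Ctsa and Man2b2 were added after their values were seen. Of other lists, called genes are named, up to 6 with the smallest p. Some marker values were added after they were seen. These are Cd68, Vim, the visceral endoderm and embryonic stem cell markers tested and not called, and the marker sums without some genes.

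Replicate numbers come from the sample titles. Deviations from group means correlated at 0.25 to 0.40 between arrays of the same number in the 2 groups and at -0.38 to -0.00 between other numbers. Such deviations cancel within a group, so positive values at the same number bring negative ones at other numbers. On this ground, without a label that says so, arrays of one number were treated as pairs in the block fit only. That fit was thus chosen from the values it was run on. The fit without the block is the main one. Alternatives covered normalization, pseudocounts of 1 and 21, the filter, probe set choice, the variance model, the block, array weights and leaving out each array. The background level of 20.3 is the highest signal, on any array, of 27 control probe sets for bacterial genes, and flooring signals at it was added after seeing the data. Promoters were read from RefSeq windows.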

Additional observations from a re-analysis of the deposited data

How the results depend on the processing

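Manba and Ctsc passed the threshold in all 19 alternatives. Ids did in 13 and Arsb in 11 of the 18 that tested it. Of 39 genes, 2 were called higher with quantile normalization and with array weights, and 3 with the replicate block. Lower calls numbered 7 with the block and 5 with array weights. Leaving out 1 array at a time gave 1 to 2 higher and 1 to 3 lower calls. Ids lost its call without the Pcl2 shRNA array labelled replicate 2 (adjusted p = 0.125 in limma) or 3 (0.0856) and without the mismatch control array labelled replicate 1 (0.0989) or 3 (0.0783), with quantile normalization (0.0505) and with the mean of its probe sets. Arsb lost it without Pcl2 shRNA replicate 2 (0.158) or 3 (0.0992), without mismatch control replicate 1 (0.138), 2 (0.0627) or 3 (0.0609), with no filter (0.0786) and with the floor at background. Glb1 gained a call without Pcl2 shRNA replicate 1 (0.0203) or mismatch control replicate 3 (0.0424), Ctsl without Pcl2 shRNA replicate 3 (0.0334) and Arsa without mismatch control replicate 2 (0.0302).

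The median difference of the 39 genes ranged from -0.26 to 0.02. Of the 35 genes not called, 16 changed sign in at least 1 alternative, none with a difference above 0.25 in size; no called gene did. Counts over all genes were 1652 in the main analysis, 3113 with the block (1305 higher, 1808 lower), 885 higher and 1335 lower with array weights, and 263 higher and 689 lower without Pcl2 shRNA replicate 2. The block changed no other call of a lysosomal gene than those given for Glb1, Gm2a, Arsa, Smpd1, Lgmn and Ctsl. Among the other lists, Scpep1 lost its call without Pcl2 shRNA replicate 2 (0.0662), Dnase2a without Pcl2 shRNA replicate 1 (0.0625), Sort1 with the mean of its probe sets (0.0627), and Cln3, Acp5, Laptm5, Hyal2, Atp6v1a, Rragd, Map1lc3a, Mmp2, Lrp2 and Sox2 in 3 or more alternatives. The cause was not tested. Signals near 20.3, as for Arsb, Man2b2 and Ctsh, are close to background, which limits their precision.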
